A study of Mus musculus with 8 samples.

Results

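The genes described here are 8 genes of skin hydration. They are the aquaporins Aqp1, Aqp3, Aqp7 and Aqp9, the filaggrin-processing enzymes Padi1 and Blmh, the histidine enzyme Hal and the sodium pump subunit Atp1b1. They were chosen by name for their place in skin hydration, and every probe set (the short probes of an array that report 1 transcript) whose annotation gave exactly 1 of these symbols was taken. This gave 18 of the 45037 non-control probe sets, with 4 for Aqp3, 5 for Atp1b1, 2 each for Aqp7, Aqp9 and Blmh, and 1 each for Aqp1, Padi1 and Hal. The main probe set of a gene is the one with the highest mean over all 8 arrays.

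The arrays measured the dorsal skin of hairless mice (strain Hos:HR-1), all female and aged 10 weeks. The collagen group (4 arrays) had eaten AIN-93G, a purified rodent diet, with fish-scale collagen hydrolysate at 2.0 g per 100 g for 1 week, and the control group (4 arrays) plain AIN-93G for the same time. Each diet had 8 mice, housed 4 per cage; the sources used here do not say which of them the arrays came from. The labels call the 4 arrays of a diet biological replicates, and arrays are named here by diet and replicate number.

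The outer epidermis holds water through small osmolytes and through channels. Aquaporins are membrane pores for water, and the subgroup called aquaglyceroporins (here Aqp3, Aqp7 and Aqp9) also passes glycerol. Natural moisturising factor is the pool of free amino acids and their derivatives made in the outermost layers by breaking down filaggrin: peptidylarginine deiminases such as Padi1 convert its arginines to citrulline, proteases such as bleomycin hydrolase (Blmh) complete its digestion, and histidine ammonia-lyase (Hal) turns the freed histidine into urocanic acid. Atp1b1 encodes the beta subunit of the Na,K-ATPase, the pump that maintains the sodium gradient used for osmolyte and ion transport.

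Of the 8 genes, Aqp3 and Aqp7 are close neighbours on chromosome 4, with 1 annotated gene, the small nuclear RNA Gm25637, between them, and Padi1 lies on the same chromosome in the cluster of deiminase genes beside Padi3 and Padi2. Over the arrays, Blmh correlated with Aqp9 and with Aqp3 (Pearson r of 0.7 or more), as described further on. No pair among these genes passed adjustment, and Aqp3 with Aqp9 stayed under that size. The promoter windows below, shown for these correlations, are those of Aqp3, Aqp9 and Blmh. Each runs 5′ to 3′ on the strand of the gene, from 250 bases before to 50 after a RefSeq start (build GRCm38.p6). Capitals mark matches to TGANTCA, the AP-1 motif, or to TATAAA, the TATA box, on either strand.
Aqp3, chr4:41098134-41098433, minus strand: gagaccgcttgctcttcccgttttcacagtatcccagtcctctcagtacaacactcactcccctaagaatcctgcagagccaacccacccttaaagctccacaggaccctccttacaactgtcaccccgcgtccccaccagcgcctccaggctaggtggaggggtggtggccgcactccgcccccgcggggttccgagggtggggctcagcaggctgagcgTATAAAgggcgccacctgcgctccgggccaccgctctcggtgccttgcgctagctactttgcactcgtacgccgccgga
Aqp9 first window, chr9:71163240-71163539, minus strand: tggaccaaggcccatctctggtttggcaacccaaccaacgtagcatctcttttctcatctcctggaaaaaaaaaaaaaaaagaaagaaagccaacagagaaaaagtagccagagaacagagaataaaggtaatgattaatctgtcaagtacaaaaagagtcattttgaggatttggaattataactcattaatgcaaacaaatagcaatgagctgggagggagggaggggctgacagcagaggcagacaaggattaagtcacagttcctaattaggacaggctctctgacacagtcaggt
Aqp9 second window, chr9:71162584-71162883, minus strand: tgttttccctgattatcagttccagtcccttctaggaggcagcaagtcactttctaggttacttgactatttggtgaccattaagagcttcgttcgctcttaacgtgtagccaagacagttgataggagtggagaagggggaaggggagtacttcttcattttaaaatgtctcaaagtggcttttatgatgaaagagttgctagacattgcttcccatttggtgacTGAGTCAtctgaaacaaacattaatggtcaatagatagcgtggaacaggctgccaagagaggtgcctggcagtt
Blmh, chr11:76945406-76945705, plus strand: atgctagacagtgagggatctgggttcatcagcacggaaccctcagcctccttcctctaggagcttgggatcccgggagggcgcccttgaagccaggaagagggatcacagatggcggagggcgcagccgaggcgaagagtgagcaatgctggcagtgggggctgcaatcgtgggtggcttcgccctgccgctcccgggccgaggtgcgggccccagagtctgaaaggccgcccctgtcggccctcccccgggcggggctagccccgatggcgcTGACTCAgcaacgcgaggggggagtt
RefSeq windows were found for all 8 genes, 10 in all. The Aqp3 window held TATAAA at position -29 from the start site and no TGANTCA. The second Aqp9 window held TGANTCA at position -24, and the Blmh window held it from base 25 of the transcript. Neither motif was in the first Aqp9 window. Among the other 5 genes, only Hal had a window with either motif, with 1 match to each. TGANTCA occurs in 7.81% and TATAAA in 13.6% of all 32851 windows of this length, so the matches are a description and no more.

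All 8 genes gave values in all 8 arrays, and the deposited values differed very little between mice. Across all probe sets, the range over the 8 arrays had a median of 7.36e-06 and a 90th percentile of 1.52e-04 on the deposited log2 scale. It is not known that a difference on this scale is a log2 fold change. Differences are therefore given on the deposited scale and as multiples of the within-group standard deviation (SD), and none is turned into a fold change. Of the 18 probe sets, 11 had a range above the 90th percentile of all ranges, as did 6 of the 8 main probe sets. The exceptions among the main probe sets were Aqp7 (range 2.09e-06) and Hal (4.82e-05). The middle of all probe set means was 8.193, and among the main probe sets those of Aqp7 (7.79) and Padi1 (7.96) lay under it and the other 6 above. Signal over background is unknown, since no detection calls were used.

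**Figure D1:**
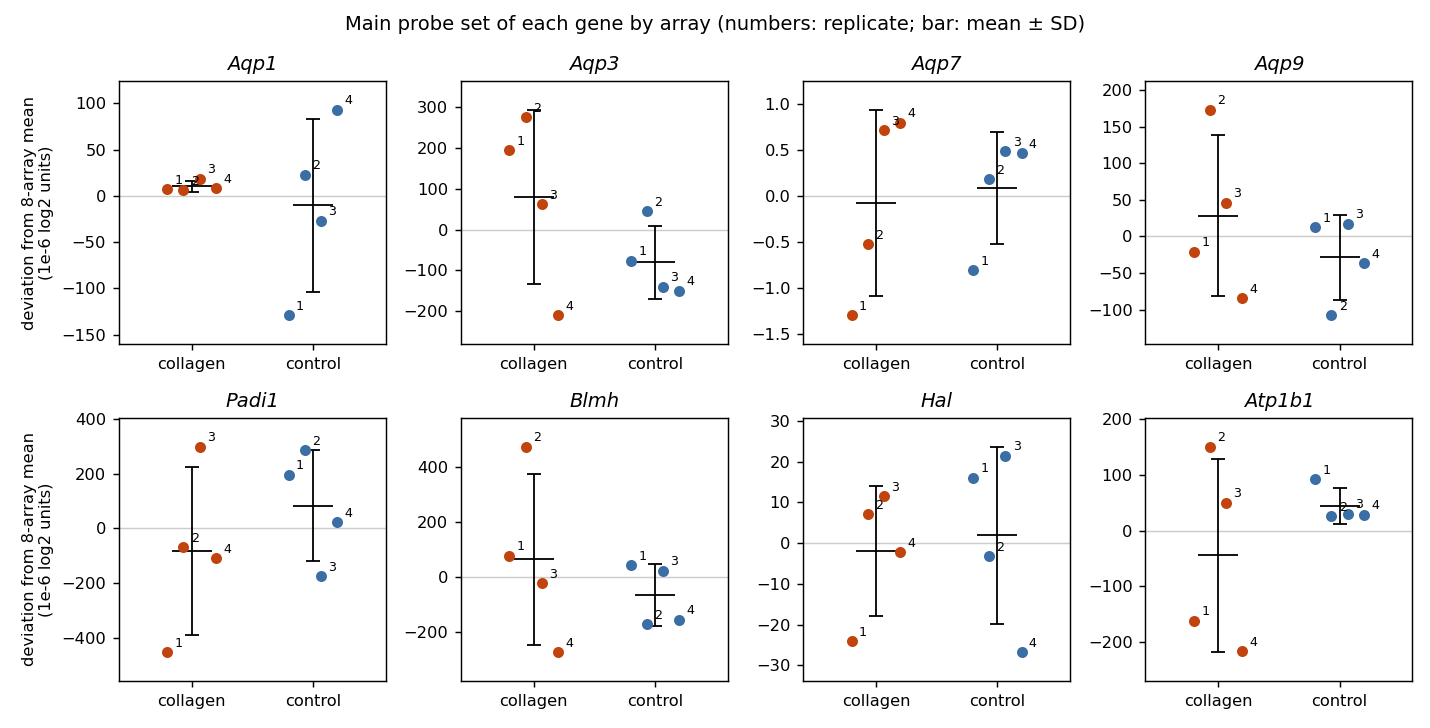
Each panel plots the main probe set of 1 gene, with the 4 collagen arrays left of the 4 control arrays, as deviation from the mean over the 8 arrays in units of 1e-6 on the deposited log2 scale; numbers are replicate numbers and bars the mean ± SD. The values of both diets overlap in all 8 panels, and collagen 2 is the highest array for Aqp3, Aqp9, Blmh and Atp1b1.

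The comparison of diets asks whether 1 week of collagen hydrolysate changed the level of these genes. None of the 18 probe sets separated the diets. By limma's moderated test, with Benjamini-Hochberg adjustment over all 45037 probe sets, 0 of the 18 passed an adjusted p of 0.05, where 0% of all probe sets did, and every one of the 18 had an adjusted p of 1. At an unadjusted p under 0.05 there were likewise 0 of 18, where 3.55% of all probe sets (1601) lay. The smallest unadjusted p among the 18 was 0.0940, for a dim Aqp3 probe set. The diets overlapped in all 18, against 2.01% of all probe sets without overlap. By mean, 9 of the 18 were higher with collagen and 9 lower, where 53.3% of all probe sets were higher and 46.7% lower. The size of the difference had a median of 0.743 within-group SD over the 18, beside 0.488 over all probe sets. The 18 are not independent, since 4 of them report Aqp3 and 5 report Atp1b1. Among the main probe sets the size ran from 0.192 (Aqp7) to 0.985 (Aqp3).

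Aqp3, the aquaglyceroporin of keratinocytes, carries both water and glycerol into the epidermis. Its main probe set stood at 11.69421, 11.69429, 11.69408 and 11.69381 in collagen 1 to 4, against 11.69394, 11.69406, 11.69388 and 11.69387 in control 1 to 4. Collagen 1, 2 and 3 lay above all 4 controls, and collagen 4 lay below all of them, so the diets overlapped through 1 array. The difference was 1.60e-04 ± 1.11e-04 (SE, n = 4 per diet), or 0.985 within-group SD, with a 95% interval from -1.05e-04 to 4.26e-04 (unadjusted p = 0.193 by limma). The collagen arrays were also more spread, with an SD of 2.12e-04, than the controls with 8.92e-05. Leaving out 1 array at a time gave differences from 9.54e-05 without collagen 2 (unadjusted p = 0.410 and adjusted p = 1 by limma) to 2.57e-04 without collagen 4 (unadjusted p = 0.0125 and adjusted p = 0.584 by limma).

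The other 3 Aqp3 probe sets had positive differences too. They amounted to 0.911 SD (the probe set at 10.69), 0.777 SD (that at 9.82) and 1.42 SD (that at 7.43). The first 2 of these followed the main probe set over the 8 arrays, with Pearson r of 0.95 (exact permutation p = 5.95e-04) and 0.95 (exact permutation p = 1.49e-04), and Spearman rho of 0.90 (exact p = 0.00456) and 0.98 (exact p = 3.97e-04); after adjustment over the 19 pairs of probe sets of the same gene the p-values of r were 0.00377 and 0.00212. Without collagen 1 and 2, the arrays farthest from the median, r was 0.84 and 0.88. The dim probe set at 7.43 did not follow them (r = -0.15, exact permutation p = 0.713) and varied by only 2.75e-06. Its collagen 4 array was the highest of all 8, whereas collagen 4 was the lowest in the main probe set.

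Aqp7 is the glycerol channel through which fat cells release glycerol. Its main probe set read 7.7876379, 7.7876387, 7.7876399 and 7.7876400 in collagen 1 to 4, against 7.7876384, 7.7876394, 7.7876397 and 7.7876397 in control 1 to 4. The lowest and the highest array were both in the collagen group. The difference was -1.60e-07 ± 5.98e-07 (SE, n = 4 per diet), or -0.192 within-group SD, with a 95% interval from -1.60e-06 to 1.28e-06. Its second probe set differed by -0.549 SD, and r between both was 0.45 (exact permutation p = 0.266). The sign of this gene depended on scaling, since both probe sets lay higher with collagen after quantile normalization and after median centring. Centring moves all probe sets of an array by the same amount. The array medians (8.19267 to 8.19294) differ by far more than the Aqp7 values do. The sign after centring is therefore set by the array medians and is not particular to Aqp7. 

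Aqp9 is an aquaglyceroporin best known from liver and white blood cells. Its main probe set gave 9.32790, 9.32810, 9.32797 and 9.32784 in collagen 1 to 4, against 9.32794, 9.32782, 9.32794 and 9.32789 in control 1 to 4. Collagen 2 and 3 stood above all 4 controls, and collagen 1 and 4 lay inside the control range. The difference was 5.74e-05 ± 5.99e-05 (SE, n = 4 per diet), or 0.650 within-group SD, with a 95% interval from -8.64e-05 to 2.01e-04. Without collagen 2 it was 9.10e-06. The second probe set, at 7.82, differed by 1.46e-05 or 1.09 SD (unadjusted p = 0.155 by limma).

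Aqp1 is the water channel of red cells and of capillary endothelium. Its single probe set gave 10.94259, 10.94259, 10.94260 and 10.94259 in collagen 1 to 4, against 10.94245, 10.94260, 10.94255 and 10.94267 in control 1 to 4. The 4 collagen arrays lay within 1.22e-05 of each other and inside the control range of 2.22e-04. The difference in means was 2.02e-05 ± 4.49e-05 (SE, n = 4 per diet), or 0.306 within-group SD, with a 95% interval from -8.76e-05 to 1.28e-04, and without control 1 it was -1.95e-05. The difference in spread between the diets was not tested. All 7 endothelial markers had lower means with collagen and none passed the test. Their score, the mean over the markers of the z value over the 8 arrays, ran from -1.49 to 0.375 in the collagen arrays and from -0.025 to 0.809 in the controls. Its lowest array, collagen 2, held an Aqp1 value in the middle of the range. In whole skin, fewer cells of a type and less RNA per cell cannot be told apart, here or in the results that follow.

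Among the enzymes of natural moisturising factor, Padi1 is the deiminase that prepares filaggrin for digestion. Its single probe set gave 7.96442, 7.96480, 7.96517 and 7.96476 in collagen 1 to 4, against 7.96507, 7.96516, 7.96470 and 7.96489 in control 1 to 4. Collagen 1 was the lowest and collagen 3 the highest of all 8 arrays. The difference was -1.66e-04 ± 1.77e-04 (SE, n = 4 per diet), or -0.634 within-group SD, with a 95% interval from -5.92e-04 to 2.60e-04. It ran from -2.93e-04 without collagen 3 to -4.22e-05 without collagen 1, and was -6.28e-07 with array weights.

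Blmh, the bleomycin hydrolase, was measured by a pair of probe sets that ran in parallel (r = 0.99, exact permutation p = 2.23e-04; rho = 0.95, exact p = 0.00114; adjusted p of r = 0.00212 over the 19 pairs; r = 0.94 without collagen 2 and 4). The main one gave 12.34820, 12.34859, 12.34809 and 12.34784 in collagen 1 to 4, against 12.34816, 12.34795, 12.34814 and 12.34796 in control 1 to 4. The highest array, collagen 2, and the lowest, collagen 4, were both in the collagen group. The difference was 1.29e-04 ± 1.59e-04 (SE, n = 4 per diet), or 0.552 within-group SD, with a 95% interval from -2.52e-04 to 5.11e-04. Without collagen 2 both probe sets had the opposite sign, and the main one differed by -7.61e-06.

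Hal, the histidase, varied least among the 3 enzymes. Its single probe set gave 12.30419, 12.30422, 12.30423 and 12.30421 in collagen 1 to 4, against 12.30423, 12.30421, 12.30424 and 12.30419 in control 1 to 4. The collagen arrays all fell inside the control range. The difference was -3.80e-06 ± 1.29e-05 (SE, n = 4 per diet), or -0.199 within-group SD, with a 95% interval from -3.49e-05 to 2.73e-05, and its sign turned when collagen 1, control 1 or control 3 was left out.

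Atp1b1, the sodium pump beta subunit, had a lower mean with collagen in all 5 of its probe sets, with differences from -1.21 to -0.709 within-group SD. The sign of 3 of them turned after median centring, which moves all probe sets of an array alike. These 3 varied by 1.55e-04 or less over the 8 arrays, which is less than the array medians do (8.19267 to 8.19294). After quantile normalization 1 of the 5 turned and 3 were left lower. The main probe set gave 11.31093, 11.31124, 11.31114 and 11.31087 in collagen 1 to 4, against 11.31118, 11.31112, 11.31112 and 11.31112 in control 1 to 4. Collagen 1 and 4 lay below all 4 controls, collagen 2 above all of them and collagen 3 among them. The difference was -8.87e-05 ± 8.49e-05 (SE, n = 4 per diet), with a 95% interval from -2.92e-04 to 1.15e-04, and ran from -1.54e-04 without collagen 2 to -3.11e-05 without collagen 4. The collagen arrays had an SD of 1.74e-04 and the controls one of 3.23e-05. The largest difference in SD units was that of the probe set at 11.24, -7.17e-05 ± 4.03e-05 (unadjusted p = 0.122 by limma). The 4 brighter probe sets followed each other with r between 0.83 and 0.96 over the 8 arrays, and the dimmest, at 8.15, had r of 0.28 to 0.33 with them. Among the 4 brighter ones, rho ran from 0.55 to 0.90, and without collagen 1 and 4 r ran from 0.22 to 0.91. The 5 probe sets report 1 gene and are no independent evidence for it.

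**Figure D2:**
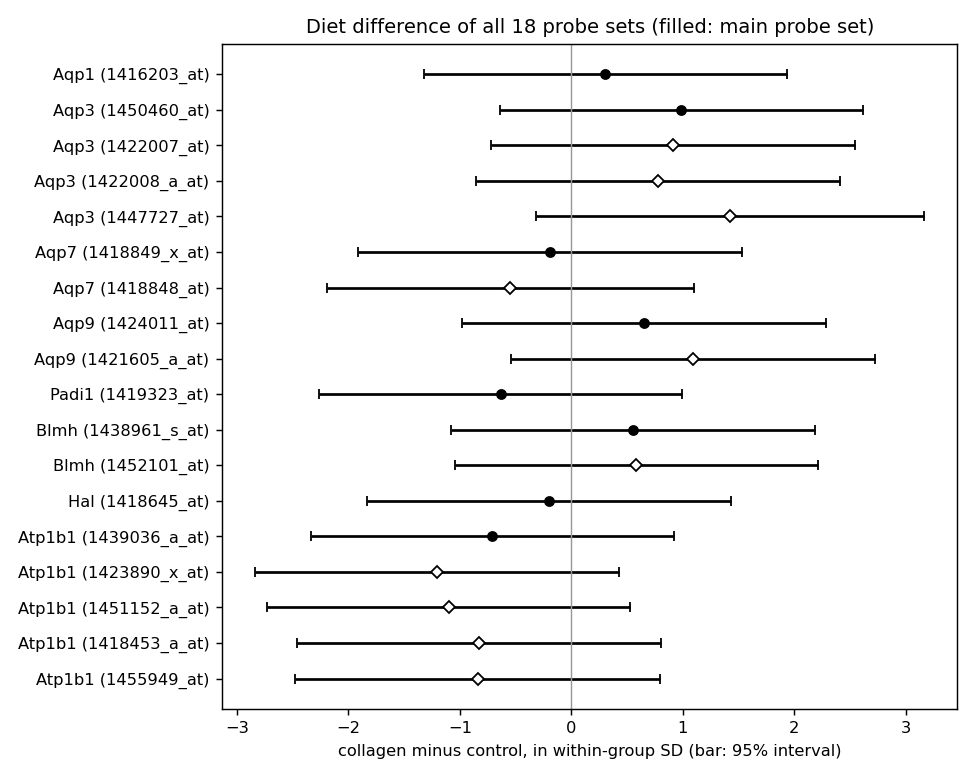
The plot gives the collagen minus control difference of each of the 18 probe sets, divided by its within-group SD, with limma's 95% interval; filled circles are the main probe sets. All 18 intervals contain 0; the 4 Aqp3 probe sets lie right of 0 and the 5 Atp1b1 probe sets left of it.

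The 8 main probe sets form 28 pairs, whose covariation over the 8 arrays was examined next. Pearson r was positive in 15 pairs and negative in 13, with a size of 0.7 or more in 2 pairs (7.14%). Among all pairs of 18191 genes with any variation, 8.52% reached that size, so strong correlations were not more frequent here than in the whole table. No pair had an adjusted p under 0.05 over the 28 pairs, and 2 had an unadjusted exact permutation p of r under 0.05. By Spearman rho 4 pairs did, again none after adjustment, the highest being Aqp9 with Atp1b1 (rho = 0.81, exact p = 0.0218, adjusted p = 0.321; r = 0.63, exact permutation p = 0.0994).

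The 2 pairs found by r joined Blmh to Aqp9 and to Aqp3. Blmh and Aqp9 had r = 0.92 (exact permutation p = 0.00407, adjusted p = 0.114) and rho = 0.74 (exact p = 0.0458, adjusted p = 0.321). Without collagen 2 and control 2, the arrays farthest from the median of Aqp9, r was 0.75, and as deviations from the diet means it was 0.91. Blmh and Aqp3 had r = 0.76 (exact permutation p = 0.0184, adjusted p = 0.257) and rho = 0.74 (exact p = 0.0458, adjusted p = 0.321). This second relation was weaker without collagen 1 and 2, the arrays farthest from the median of Aqp3, where r was 0.31. Leaving out 1 array at a time gave r from 0.54 (without collagen 2) to 0.84. As deviations from the diet means r was 0.74. All 3 genes had their highest value in collagen 2, and Aqp3 and Blmh had their lowest in collagen 4. Between Aqp3 and Aqp9, r was 0.58 (exact permutation p = 0.127, adjusted p = 0.521), and 0.17 without collagen 1 and 2.

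Aqp3 and Aqp7, the neighbours on chromosome 4, had r = -0.62 (exact permutation p = 0.106, adjusted p = 0.521) and rho = -0.60 (exact p = 0.132, adjusted p = 0.412), and r = -0.14 without collagen 1 and 2. Aqp1 and Hal had r = -0.67 (exact permutation p = 0.0627, adjusted p = 0.521) and rho = -0.74 (exact p = 0.0458, adjusted p = 0.321), and r = -0.48 without control 1 and 4. Within the moisturising factor pathway, Padi1 and Blmh (r = -0.23, exact permutation p = 0.596) and Blmh and Hal (r = 0.27, exact permutation p = 0.535) did not pass.

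**Figure D3:**
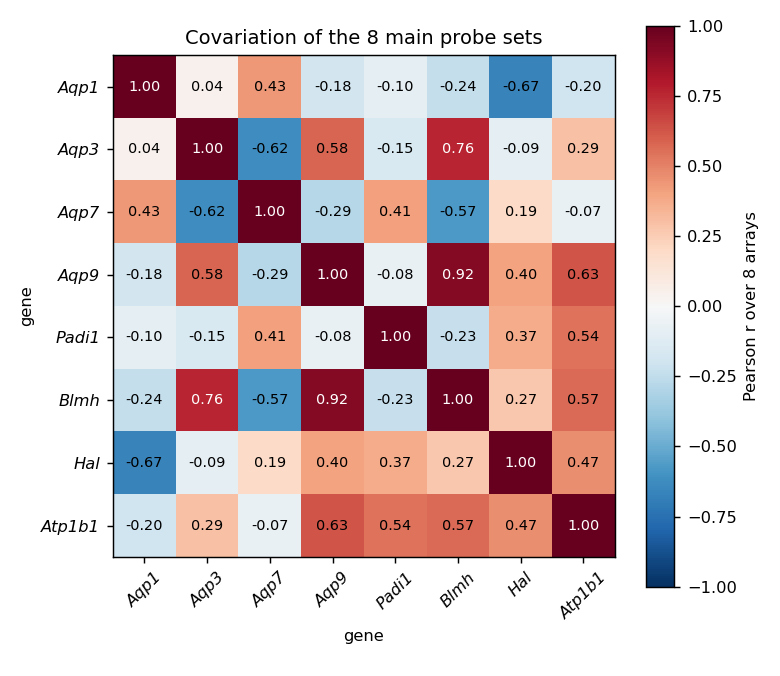
The matrix gives Pearson r over the 8 arrays for each pair of main probe sets, red for positive and blue for negative values. Blmh with Aqp9 (0.92) and Blmh with Aqp3 (0.76) are the 2 pairs at 0.7 or more.

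Padi1 ran almost in parallel with the keratins of the inner root sheath, the layer of the hair follicle that moulds the growing shaft. Among 11595 genes with a mean at or above 8.193, the 2 whose pattern over the 8 arrays was most like that of Padi1 were the inner root sheath keratins Krt25 (r = 0.987) and Krt26 (r = 0.983). Of 9 inner root sheath markers, 8 had r between 0.92 and 0.99 with Padi1, among them Tchh (trichohyalin, the deiminated matrix protein of that layer) at 0.925 and Padi3, the deiminase of the hair follicle, at 0.965. Gata3, a transcription factor of that layer, had r = 0.150. The median r over the 9 was 0.965, beside -0.034 over all genes. It lay between 0.929 and 0.980 when each array was left out in turn, and was 0.918 without collagen 1 and 3, the arrays farthest from the median of Padi1. With the 7 suprabasal epidermal markers, the median r of Padi1 was 0.002. With the 8 skeletal muscle markers it was 0.537 (all 8 above 0), and 0.157 without collagen 1 and 3. With the 7 fibroblast markers it was 0.318 (5 of 7 above 0), and 0.066 without these arrays. The inner root sheath score was -1.52, -0.169, 1.02 and -0.463 in collagen 1 to 4, against 0.503, 0.986, -0.723 and 0.357 in control 1 to 4. It was lowest in collagen 1 and highest in collagen 3, as was Padi1. By mean, 8 of the 9 markers were lower with collagen and none passed the test, and the part of this in the difference of Padi1 was not tested.

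Blmh, Aqp9 and Aqp3 ran with the suprabasal epidermal markers (Krt1, Krt10, Krt2, Lor, Ivl, Dsg1a and Flg). Their median r with these 7 was 0.731 for Blmh, 0.687 for Aqp9 and 0.470 for Aqp3, and all 7 values of r were above 0 for each gene. Atp1b1 also had a median of 0.498 (6 of 7 above 0, and 0.582 without collagen 1 and 4) and Hal one of 0.357 (7 of 7 above 0). Atp1b1 had like medians with the skeletal muscle markers (0.507, all 8 above 0) and the inner root sheath markers (0.494, all 9 above 0). Without collagen 1 and 4 these were -0.532 and -0.249. With the neutrophil and macrophage markers Atp1b1 had -0.577, and -0.734 without these arrays. Hal had 0.341 with the fibroblast markers, and 0.055 without collagen 1 and control 4. Aqp3 also had 0.420 with the sebaceous gland markers (3 of 5 above 0) and 0.373 with the basal keratinocyte markers (5 of 6 above 0). Without collagen 1 and 2 these were -0.088 and 0.111. With the sebaceous gland markers Blmh had 0.478 (3 of 5 above 0), and 0.267 without collagen 2 and 4. Aqp9 had 0.318 with them (4 of 5 above 0), and 0.216 without collagen 2 and control 2. Over all genes the medians for Blmh, Aqp9 and Aqp3 were -0.069, -0.052 and -0.075. Without the 2 arrays farthest from the median of the gene, the suprabasal value was 0.124 for Blmh (collagen 2 and 4 left out), 0.684 for Aqp9 (collagen 2 and control 2) and 0.310 for Aqp3 (collagen 1 and 2). The suprabasal score was -0.317, 1.49, 0.404 and -0.822 in collagen 1 to 4, against -0.427, 0.089, 0.463 and -0.881 in control 1 to 4. Collagen 2 had the highest score, as it had the highest Blmh, Aqp9 and Aqp3. Collagen 2 also had the lowest scores of the neutrophil and macrophage markers (-1.50) and of the fibroblast markers (-1.52), and collagen 4 the highest neutrophil and macrophage score (1.68). The part of these in the patterns of Blmh, Aqp9 and Aqp3 was not tested.

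The neutrophil and macrophage markers ran the other way, with a median r over 6 genes of -0.779 for Blmh, -0.666 for Aqp9 and -0.749 for Aqp3, and all 6 values below 0 for each gene. Without the 2 farthest arrays these were -0.150 for Blmh, -0.526 for Aqp9 and -0.531 for Aqp3. For Blmh and Aqp3 this was larger in size than the relation with the suprabasal markers. The median r with the 7 endothelial markers was -0.685 for Blmh, -0.703 for Aqp9 and -0.675 for Aqp3, and without the same 2 arrays -0.227 for Blmh, -0.121 for Aqp9 and -0.178 for Aqp3. With the 7 fibroblast markers it was -0.587 for Blmh, -0.545 for Aqp9 and -0.602 for Aqp3. Without the same 2 arrays this became -0.048 for Blmh, 0.179 for Aqp9 and -0.124 for Aqp3. With the 6 adipocyte markers the median r was -0.607 for Blmh, -0.376 for Aqp9 and -0.723 for Aqp3. The adipocyte values without the same 2 arrays were -0.008 for Blmh, -0.459 for Aqp9 and -0.722 for Aqp3. By mean, all 7 fibroblast and all 8 skeletal muscle markers were lower with collagen, and none passed the test. The genes most like Aqp9 were Osbpl1a (r = 0.984) and Serpinb12 (r = 0.984), and those most like Blmh were Dennd2d (r = 0.986) and H60c (r = 0.980). Slc39a2, a zinc transporter, and Tmem41a were most like Aqp3 (r = 0.966 and 0.965). Tgm3, the transglutaminase that crosslinks epidermal and hair proteins, was most like Atp1b1 (r = 0.973), followed by Atg2a (r = 0.951).

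Aqp7 had a median r of 0.488 with 6 adipocyte markers, all 6 positive, of 0.822 without collagen 1 and control 1, and of 0.621 with 8 skeletal muscle markers; without the same 2 arrays the muscle value was -0.161. The neutrophil and macrophage markers (0.481, all 6 positive, and 0.760 without these arrays), the fibroblast markers (0.432 and 0.647) and the endothelial markers (0.408 and 0.549) also had higher values without them. The genes most like Aqp7 were Cngb1 and Tbc1d8 (r = 0.975 and 0.974). Aqp1 had a median r of 0.274 with 7 endothelial markers, and -0.128 without control 1 and control 4. Its median r with the 8 skeletal muscle markers was higher, at 0.464 with all 8 positive, and 0.024 without these arrays. The genes most like it were Rrp1 and Fpgs (r = 0.951 and 0.948). Hal was most like Ccdc88c (r = 0.981) and Gpatch2l (r = 0.972). Each of these names comes from a search over all such genes in the same 8 arrays, and carries no test.

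**Figure D4:**
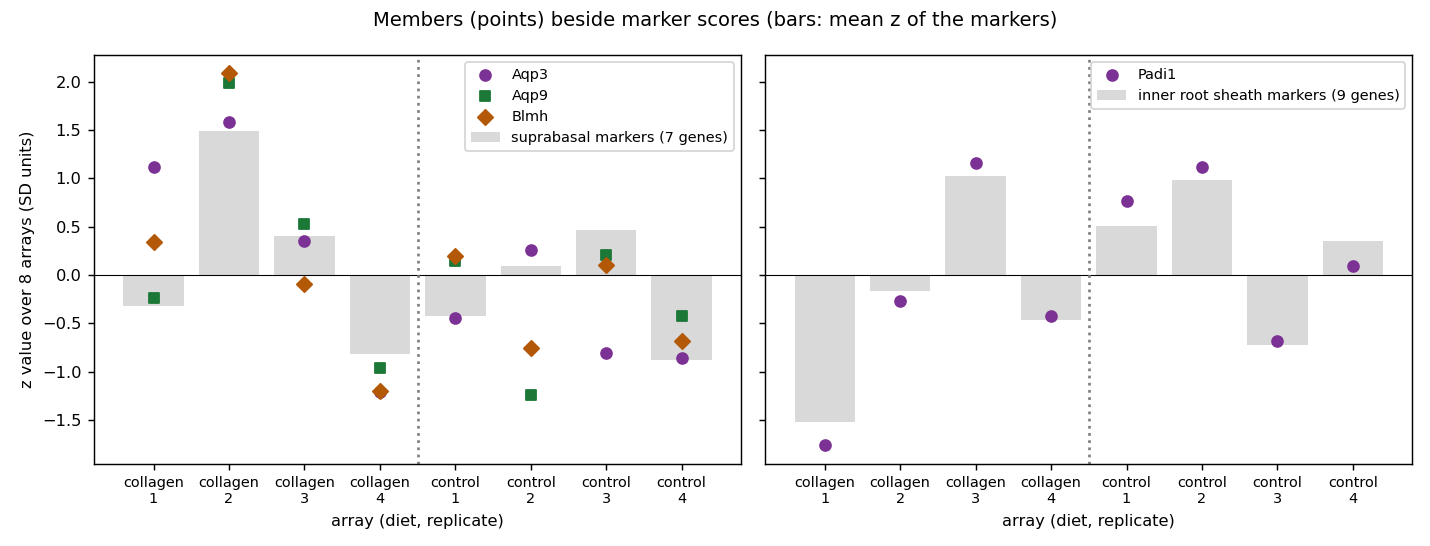
Points give the z value of each gene over the 8 arrays and grey bars the marker score, in SD units, with the 4 collagen arrays left of the dotted line and the 4 control arrays right of it. On the left, Aqp3, Aqp9 and Blmh share their highest array, collagen 2, with the suprabasal score; on the right, Padi1 and the inner root sheath score share their lowest array, collagen 1, and Padi1 lies near the bar in all 8 arrays.

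Around the 8 genes, 5 gene lists were counted with the main probe set of each gene. Of all 18193 genes, 0 passed (0%), 658 (3.62%) had an unadjusted p under 0.05, 52.9% had a higher and 47.1% a lower mean with collagen, and the median difference was 0.0517 within-group SD. No list gene passed an adjusted p of 0.05 by limma. Of the 12 aquaporins, 7 had a higher and 5 a lower mean, with a median of 0.257 SD; quantile normalization and median centring turned the sign of Aqp7 among them. The smallest p in this family was that of Aqp4, a water channel best known from the brain, with -0.00144 ± 4.79e-04 (unadjusted p = 0.0214 and adjusted p = 1 by limma). It was followed by Mip, the lens aquaporin, with -9.08e-07 ± 3.86e-07, and Aqp8 with 1.33e-06 ± 7.63e-07.

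Of 25 measured genes of filaggrin processing and moisturising factor, 15 had a higher and 10 a lower mean (60%), with a median of 0.183 SD. Oplah, the 5-oxoprolinase that opens pyroglutamate, a component of the factor, differed by -2.63e-06 ± 9.08e-07 (unadjusted p = 0.0251 and adjusted p = 1 by limma), and its diets did not overlap; 2.02% of all genes had no overlap. Rptn, the filaggrin-related repetin, differed by 0.00807 ± 0.00461, and Amdhd1, an enzyme further down the histidine pathway, by 1.33e-06 ± 9.62e-07. The source protein Flg itself differed by -9.85e-06 ± 1.84e-04 (-0.0363 SD), Casp14, a protease of filaggrin processing, by -7.22e-05 ± 1.44e-04, and Padi3 by -0.00319 ± 0.00306; Flg, Casp14 and Padi3 are named for their place in the pathway.

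The 11 genes of glycerol handling had 6 higher and 5 lower means, with a median of 0.261 SD. Gpd2, the mitochondrial glycerol-3-phosphate dehydrogenase, differed by 1.02e-04 ± 3.07e-05 (unadjusted p = 0.0142 and adjusted p = 1 by limma), Gk2, a glycerol kinase, by 8.87e-07 ± 4.64e-07, and Abhd5, a coactivator of lipolysis, by 2.09e-05 ± 1.70e-05. The 13 sodium pump genes had 7 higher and 6 lower means, with a median of 0.0924 SD. The other beta subunits lay on both sides, Atp1b3 at 1.22e-06 ± 5.14e-07 and Atp1b2 at -4.54e-04 ± 2.20e-04, and Fxyd2, a regulator of the pump, at 9.19e-04 ± 5.63e-04. The 13 genes of osmolyte and urea transport had 7 higher and 6 lower means, with a median of 0.00879 SD. The smallest p-values there belonged to Scnn1b, a sodium channel subunit (-2.33e-06 ± 1.36e-06), Slc6a12, a betaine transporter (2.53e-06 ± 1.92e-06), and Slc12a2, the sodium, potassium and chloride cotransporter (7.50e-07 ± 8.43e-07).

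**Figure D5:**
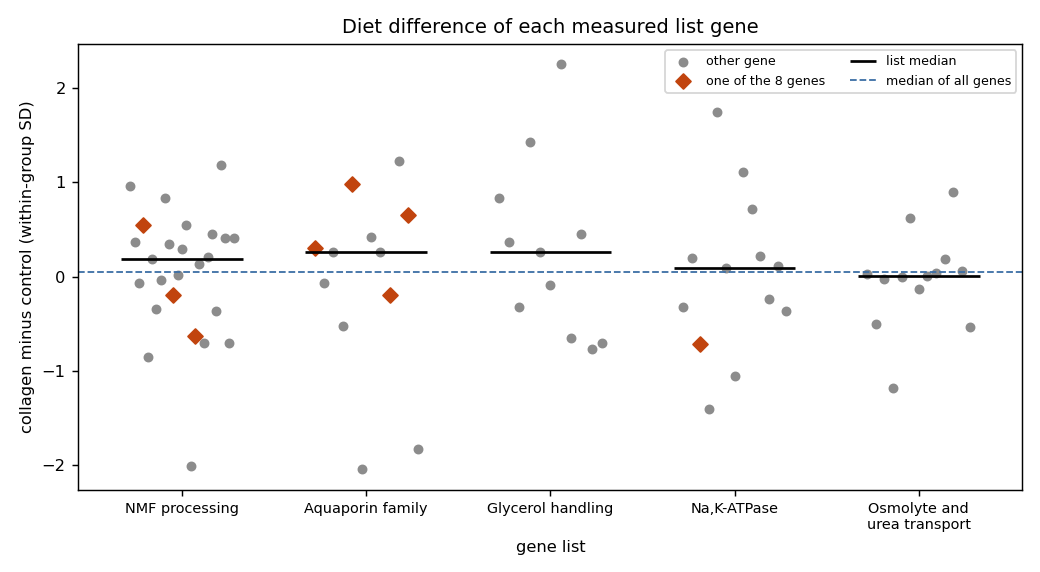
Each point is 1 measured gene of a list, placed by its collagen minus control difference in within-group SD; red diamonds are the genes among the 8, black lines the list medians and the dashed line the median of all genes. All 5 list medians lie between 0.00879 and 0.261 SD, near the 0.0517 of all genes.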

How the data were processed

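Total RNA of powdered dorsal skin was labelled with biotin and hybridised to 1-colour 3′ expression arrays, per the labels' protocols. The authors deposited values on a log2 scale, which was judged from their span (6.56 to 14.46). R 2.7.2 appears in the submitters' processing notes. How probes were summarised and normalized, and on which genome build, is something the sources used here do not give.

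Values were used as deposited, and 64 control probe sets were left out. The platform annotation gave 1 symbol for 34945 of 45037 probe sets, several for 932 and none for 9160. All 8 genes matched the RefSeq table of GRCm38.p6, used for names and neighbourhood; promoter windows are RefSeq's. The diets were compared with limma 3.58.1 in R 4.3.3 (lmFit, eBayes, collagen minus control, two-sided, no covariate), adjusted over all probe sets. The test was tested on simulated data. Correlations used two-sided exact permutation over 40320 pairings. The array count limits the precision of each value. The limma p-values set a diet difference against the spread between arrays of the same diet. Those of the correlations place r or rho among all pairings of the arrays. Mice of a diet shared cages, and no p-value takes the cage into account.

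The genes and lists were chosen with earlier results of these data known. Named were the 8 genes, the 3 list genes of smallest p in each list, the 2 genes most like each of the 8, and Flg, Casp14, Padi3, Tchh and Gata3, added after their values were seen. Alternatives were left-out arrays, quantile normalization, median centring, a filter on dim probe sets, another variance model, array weights, 1 probe set per gene, the replicate number as a block and the difference between the Gapdh 3′ and 5′ control probe sets as a covariate.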

Additional observations from a re-analysis of the deposited data

Results flagged for a closer look

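The main Atp1b1 probe set in the control group held an array that stood apart from the others. Control 1 lay at 11.311183, while the other 3 controls lay between 11.311116 and 11.311121, so that the gap above the next array was 0.935 of the range of the group, above Dixon's critical value for 4 arrays. Chance gives such a gap in about 1 in 20 groups, and 36 groups were examined (18 probe sets in both diets). Without control 1 the Atp1b1 difference was -7.26e-05, beside -8.87e-05 with it. Leaving out other arrays moved it further, to -1.54e-04 without collagen 2 and -3.11e-05 without collagen 4.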

How the results depend on the processing

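No probe set of the 8 genes and no gene of the 5 lists and the marker lists passed an adjusted p of 0.05 by limma under any of the 16 alternatives to which all probe sets were fitted; over all probe sets the count was 0 except after quantile normalization, where it was 2. The lowest adjusted p of a main probe set was 0.584. The dim filter, the other variance model, 1 probe set per gene, the replicate block and the exact permutation test cannot change a difference. Of 134 recomputed differences of main probe sets, with these included, 120 kept their sign, 11 turned it and 3 were 0. Aqp9, Padi1 and Atp1b1 kept their sign in each, but not their size: with array weights Padi1 differed by -6.28e-07 and Atp1b1 by -2.50e-05, and with 1 array left out Aqp3 ran from 9.54e-05 to 2.57e-04, Aqp9 from 9.10e-06 to 9.51e-05, Padi1 from -2.93e-04 to -4.22e-05 and Atp1b1 from -1.54e-04 to -3.11e-05. Leaving out 1 array at a time gave ranges from -1.95e-05 to 5.46e-05 for Aqp1, from -4.56e-07 to 2.46e-07 for Aqp7, from -7.61e-06 to 2.42e-04 for Blmh and from -1.33e-05 to 3.60e-06 for Hal, with both signs in each. Aqp7 was also turned by quantile normalization (1.22e-05), median centring (5.50e-05) and the Gapdh covariate (3.79e-07), and Hal by median centring (5.14e-05) and array weights (1.99e-06). Quantile normalization gave the main probe sets of Aqp3, Blmh and Hal the same value in all arrays. The array medians that centring removes ran from 8.19267 (collagen 1) to 8.19294 (collagen 3). Centring moves all probe sets of an array alike, and these medians differ by more than the values of Aqp1, Aqp7 or Hal do. Of the 28 pairs, 2 had r of size 0.7 or more. After quantile normalization no r exists for pairs with Aqp3, Blmh or Hal, so neither of these 2 could be recomputed. Among the remaining pairs the count was then 1. Over all 28 pairs it was 11 after median centring, 5 with Spearman rho and 4 as deviations from the diet means. It was 5 without the 2 farthest arrays (chosen after seeing the data), and between 1 and 5 with 1 array left out. The cause of these other changes was not tested. Same-numbered arrays of both diets had correlated deviations of 0.369, 0.064, 0.205 and 0.040 for numbers 1 to 4. The best match among the controls had the same number for collagen 1 and 3, and another for collagen 2 and 4. Without a reference for such values, they do not settle whether the numbers pair the arrays. With the replicate block 0 of the 18 probe sets passed. The differences are the same with the block, with 4 of the 8 main ones positive and Aqp3 at 1.60e-04 (adjusted p = 0.825 by limma). The filter on dim probe sets removed the main probe sets of Aqp7 and Padi1. The exact permutation test of each main difference cannot go below p = 0.0286, and its lowest value was 0.229 (Aqp3).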
